A study of Mus musculus with 20 samples.

Results

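The middle boundary of the Lbx1 and Fgf8 locus in mouse limb buds was described through its stripes, the rows of contacts that run from it to either side of the capture Hi-C map. Of the bins of 5 kb on chromosome 19 (mm9), 4 form the centromeric segment of this boundary, chr19:45615001-45635000, and 2 its telomeric segment, chr19:45640001-45650000. The bin between the segments, chr19:45635001-45640000, holds the start sites of Poll and Dpcd and was left out of both. All bin pairs with one end in a segment and the other anywhere in the captured interval, chr19:44440001-46400000, at 25 kb or more were members, which gave 2277 of the 73932 bin pairs of the inversion and wild-type maps and 2265 of 73173 in the Dup maps. Forelimb and hindlimb buds of E11.5 embryos, a stage before the digits separate, were measured together in 20 libraries that were merged into 1 map per genotype before deposit. The genotypes were homozygous Inv1, homozygous Inv2, heterozygous Inv1, homozygous Dup, heterozygous Dup and wild-type. Inv1 and Inv2 are inversions and Dup is a tandem duplication, all made with CRISPR/Cas9 in G4 embryonic stem cells, a hybrid line with a C57BL/6J parent, and all 3 alleles contain the whole boundary. The wild-type label gives strain c57bl6.J, so strain and genotype cannot be told apart. The homozygous Inv1, homozygous Inv2, homozygous Dup and wild-type maps each pool 3 biological replicates and 1 technical replicate, the heterozygous Inv1 map 3 biological replicates and the heterozygous Dup map 1, whose genotype label names an inversion and which was assigned by its title.

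TADs are stretches of chromatin within which sequences meet more often than across their ends. In the loop extrusion model, cohesin reels in chromatin until it meets CTCF bound to a motif that points towards it, so a boundary that holds cohesin on one side leaves a stripe of contacts on that side, and motifs that point to each other anchor loops. An inversion turns the motifs within it and also gives the boundary new neighbours. The boundary studied here parts Lbx1, a homeobox gene of migrating muscle precursors, and Btrc, a subunit that lets a ubiquitin ligase recognise its substrates, from Fbxw4, an F-box gene that carries limb enhancers of Fgf8 in its introns, and Fgf8, a growth factor made by the apical ectodermal ridge of the limb bud. Poll encodes DNA polymerase lambda and Dpcd a protein linked to motile cilia.

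A match to the core of the CTCF motif in the centromeric segment is shown to mark the strand that the inversions turn, and matches were not set against the direction of the stripes. It is given as 30 bases of mm9 with the 12-base match in capitals, read 5′ to 3′ on the strand that holds the match.
centromeric segment, between Btrc and Poll, chr19:45615661-45615690, minus strand: ctctactgaCCTGCAGGTGGCcaccagcag
This match lies on the minus strand of the reference and so on the plus strand of an allele in which the boundary is inverted. The search covered both strands of the interval, and 57 of 392 bins (14.5%) held a match. A match describes letters only and does not show that CTCF binds there.

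The matches at the outer boundaries are shown as the partners of the strongest stripe contacts. The bin with the highest wild-type contact on the centromeric side, chr19:45295001-45300000, between Gm20424 and Lbx1, held 2 matches on the plus strand. The highest on the telomeric side, chr19:45820001-45825000, held 1 on each strand, both between Fgf8 and Npm3.
centromeric outer boundary, first match, chr19:45295791-45295820, plus strand: ccacaagtgCCGCTAGGTGGCactcaaagc
centromeric outer boundary, second match, chr19:45297042-45297071, plus strand: agcctctgcCCAGCAGGTGGCccaggaagc
telomeric outer boundary, first match, chr19:45821015-45821044, plus strand: taaacacgcCCACCAGAGGGCgctagttcc
telomeric outer boundary, second match, chr19:45822158-45822187, minus strand: ccccagggaCCACCAGGTGGCactgtggcc
Both outer bins lie outside the inverted intervals of Inv1 and Inv2, so only the middle boundary is turned in these alleles.

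The target sites of the nuclease give the ends of each inversion, shown here with the adjoining PAM in capitals and coordinates that leave the PAM out, because they set which partners of the boundary are turned with it.
Inv1, centromeric end, between Btrc and Poll, chr19:45611034-45611053, plus strand: ggcctcaatacacctccatgGGG
Inv1, telomeric end, in an intron of Fbxw4, chr19:45734085-45734104, plus strand: ggtgacaccagtattcctcgAGG
Inv2, centromeric end, between Lbx1 and Btrc, chr19:45332272-45332291, plus strand: ctgacatttagctgtgatcgGGG
Inv2, telomeric end, between Fbxw4 and Fgf8, chr19:45792723-45792742, minus strand: ttaaatttctccaagataagAGG
Inv1 spans 123.1 kb and Inv2 460.4 kb. In Inv1 the centromeric segment came to lie 12.5 kb from the telomeric junction, and 107.5 kb from it in the reference order. The telomeric segment lay 32.5 kb from that junction in Inv1, against 87.5 kb in the reference order. In Inv2 the boundary stayed deep inside the turned interval, with its centromeric segment 167.5 kb from the centromeric junction in Inv2 and 292.5 kb in the reference order. Dup has its centromeric target site at chr19:45251631-45251650, between Gm20424 and Lbx1, shares its telomeric one with Inv2 and keeps the boundary in its wild-type orientation.

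Values are contact over expected unless they are given as scaled signal. This is the normalised contact signal of a bin pair divided by the mean signal at equal distance in that map, so 1 is the mean at that distance. For the inversions, distances were taken in the inverted order, in which the bins of the inverted interval are reversed, and the values in the reference order are given beside them. Direction is the log2 of mean contact over expected on the centromeric side over that on the telomeric side at 25 to 150 kb, so positive values point centromeric. Because each genotype is 1 merged map, differences could not be checked between replicates, and the 95% intervals in brackets cover counting error only. The maps held 11615891 read pairs for homozygous Inv1, 12790852 for homozygous Inv2, 7804215 for heterozygous Inv1, 13101700 for homozygous Dup, 3350758 for heterozygous Dup and 7867931 for wild-type, and a member bin pair had a median of 57, 53, 40, 53, 16 and 27 read pairs in the same order.

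In wild-type limb buds the segments of the boundary pointed apart. The centromeric segment had a mean contact over expected of 0.978 on its centromeric side and 0.806 on its telomeric side, a direction of 0.28 (0.24 to 0.31). For the telomeric segment the mean was 0.709 on its centromeric side and 1.25 on its telomeric side, a direction of −0.81 (−0.86 to −0.77). Within the distance range of the direction, the centromeric segment thus made more contact on the Lbx1 side. The telomeric segment made more on the Fgf8 side, and its asymmetry was the larger one. This did not hold for the telomeric segment at larger distances. At 200 to 295 kb it had 1.18 on its centromeric and 0.92 on its telomeric side, and at 300 to 395 kb 2.43 and 0.866. On the telomeric side these ranges lie beyond the telomeric outer boundary, which is 177.5 kb from this segment. The centromeric outer boundary is 347.5 kb from it, so equal distances do not cover equal parts of the TADs.

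The change from one direction to the other was gradual along the wild-type boundary. The outermost centromeric bin had 1.19 on its centromeric and 0.732 on its telomeric side, a direction of 0.70. The next 3 bins had directions of 0.34, 0.14 and −0.11. The Poll and Dpcd start bin followed with −0.45. The 2 bins of the telomeric segment had −0.71 and −0.92, the last of them having 0.695 on its centromeric and 1.31 on its telomeric side. Asymmetry of this size was not particular to the boundary: 2 of the 6 boundary bins (33.3%) pointed telomeric by at least 1.5-fold, against 26.4% of the 329 bins of the map that could be scored, and 1 of 6 (16.7%) pointed centromeric, against 19.1%.

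Nor were the members enriched for contact as a whole. Their median contact over expected was 0.855 in the wild-type, against 0.890 over all bin pairs of the map at these distances, and the 5th and 95th percentiles of the members were 0.433 and 2.28. The high values sat at the outer boundaries. Over 25 kb around each of them, which are the highest stretches of the wild-type stripes and therefore lean upwards as selected values, the centromeric segment had 4.62 (4.50 to 4.75) and the telomeric segment 3.37 (3.22 to 3.52) at the centromeric outer boundary. At the telomeric outer boundary the centromeric segment had 2.00 (1.94 to 2.06) and the telomeric segment 2.76 (2.67 to 2.86). Each segment therefore had its stronger contact with the outer boundary of its own side in relation to the other segment, by 1.37-fold (1.30 to 1.45) for the centromeric segment at the centromeric outer boundary and with a ratio of centromeric over telomeric segment of 0.722 (0.691 to 0.755) at the telomeric one.

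**Figure D1:**
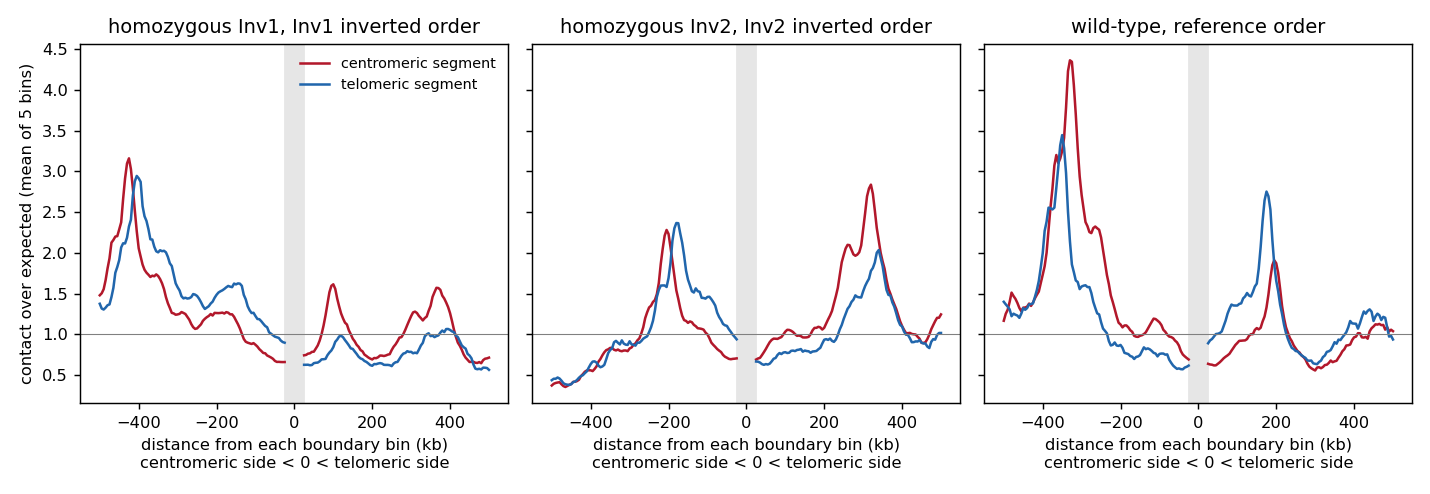
Contact over expected (running mean of 5 bins, y axis) by distance in kb from each boundary bin (x axis, centromeric side negative) for the centromeric segment (red) and the telomeric segment (blue) of the boundary, in homozygous Inv1 and homozygous Inv2 in their inverted orders and in the wild-type. Grey marks the 25 kb on either side that were not used, and the line at 1 is the mean at equal distance. On the telomeric side, up to the peak of the outer boundary, the centromeric segment lies above the telomeric segment in both inversions and below it in the wild-type. Wild-type contacts set in the Inv2 order, not drawn, also have the centromeric segment above there, with 0.926 against 0.668 at 25 to 95 kb.

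Inv1 turned the direction of both segments. In its inverted order the centromeric segment had 0.826 on its centromeric and 1.11 on its telomeric side in homozygous Inv1, a direction of −0.43 (−0.46 to −0.41), against 0.28 in the wild-type. The telomeric segment had 1.20 on its centromeric and 0.775 on its telomeric side in homozygous Inv1, a direction of 0.63 (0.60 to 0.66), against −0.81 in the wild-type. Homozygous Inv1 minus wild-type was −0.71 (−0.75 to −0.67) for the centromeric segment and 1.45 (1.39 to 1.502) for the telomeric segment. In the Inv1 order the telomeric outer boundary lay 102.5 kb from the centromeric and 122.5 kb from the telomeric segment, within the range of the direction. In the wild-type it lay outside that range, at 197.5 and 177.5 kb. The centromeric outer boundary lay outside it in both. With the range widened to 300 kb, the centromeric segment of homozygous Inv1 had a direction of 0.10, against 0.48 in the wild-type. Its sign was thus turned over the near range only.

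The values of single bins ran in the opposite order in homozygous Inv1. By reference position from the centromeric end, the directions were −0.73, −0.53, −0.29 and −0.15 over the centromeric segment, 0.23 at the Poll and Dpcd start bin and 0.52 and 0.75 over the telomeric segment. In place on the inverted allele, the bins nearest Lbx1 again pointed centromeric and those nearest Fgf8 telomeric. Against the wild-type, 2 of the 6 boundary bins changed by at least 1.5-fold towards the telomeric side (percent of all bins called, 8.21) and 2 of 6 towards the centromeric side (percent of all bins called, 4.56). The change towards the centromeric side was shared by most of the inverted sequence in this comparison. Of the other 19 inverted bins, 13 changed by 1.5-fold to that side and 1 to the telomeric side. The median log2 change was −0.23 for the 6 boundary bins and 1.04 for these 19. Reordering alone shifts directions too. At the last telomeric bin, wild-type contacts had −0.19 in the Inv1 order and −0.92 in the reference order. The 19 bins were not set against wild-type contacts in the Inv1 order. In the reference order 3 of the 6 boundary bins changed towards the telomeric side (8.21% of all bins) and 1 towards the centromeric side (5.47% of all bins).

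In Inv1 a part of the partners of the boundary was not inverted with it. None of the 104 bin pairs that the centromeric segment makes on its centromeric side at 25 to 150 kb has its partner within the inverted interval, and 5 of 52 (9.62%) of those of the telomeric segment do. On the telomeric side of the reference order, 70 of 104 (67.3%) partners of the centromeric segment and 27 of 52 (51.9%) of those of the telomeric segment were inverted along with the boundary. Homozygous Inv1 had −0.43 and 0.63 in its own order, whereas the wild-type contacts set in that order had a direction of 0.93 (0.89 to 0.96) for the centromeric segment and −0.09 (−0.13 to −0.05) for the telomeric segment. At reference positions homozygous Inv1 had −1.03 (−1.06 to −1.01) for the centromeric segment, against 0.28 in the wild-type, and −0.16 (−0.19 to −0.13) for the telomeric segment, against −0.81 in the wild-type.

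The partners beyond the inversion were exchanged between the segments. Over the 150 kb telomeric of the inversion, which include Fgf8, the centromeric segment had a mean signal of 33.9, scaled to a sum of 1000000 over each map, in homozygous Inv1 and 16.4 in the wild-type. With the same stretch the telomeric segment had 19.2 in homozygous Inv1 and 25.4 in the wild-type. Over the 150 kb on the centromeric side the centromeric segment had 16.99 in homozygous Inv1, against 26.5 in the wild-type, and the telomeric segment 24.2 in homozygous Inv1, against 16.6 in the wild-type. In the inverted order both segments lay nearer to the telomeric flank and farther from the centromeric one. The centromeric segment thus had more signal with the flank it came nearer to and less with the other, and the telomeric segment the reverse. The distances differed as well, and in contact over expected of the inverted order the telomeric segment kept the higher value on the centromeric flank, 1.45 (1.42 to 1.47), with 1.16 (1.15 to 1.18) for the centromeric segment. On the telomeric flank the centromeric segment had 1.07 (1.06 to 1.09) and the telomeric segment 0.774 (0.760 to 0.788). Contacts of the boundary with the sequence that was inverted along with it had 0.734 for the centromeric segment in homozygous Inv1 and 0.714 in the wild-type, and 0.965 for the telomeric segment in homozygous Inv1 and 1.01 in the wild-type.

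**Figure D2:**
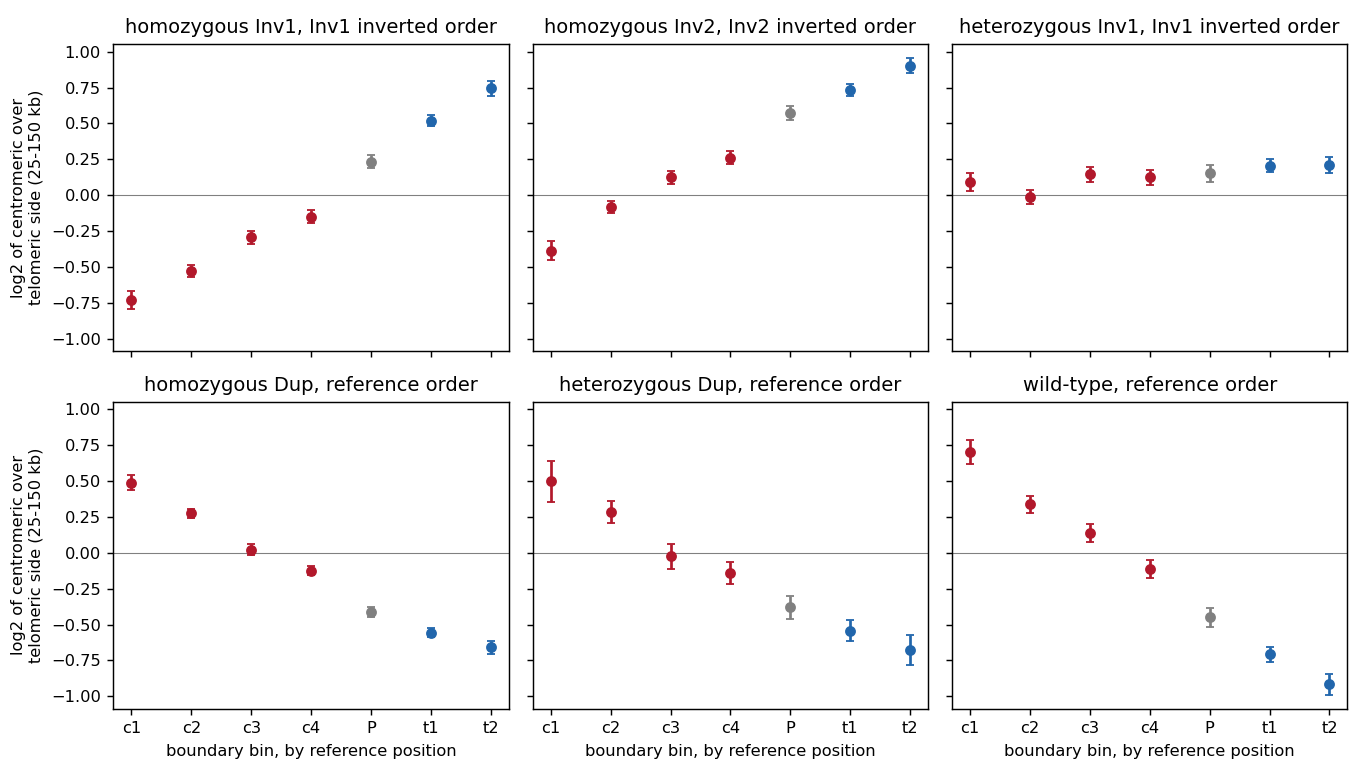
Direction of each boundary bin, as log2 of contact over expected on the centromeric over the telomeric side at 25 to 150 kb (y axis), for the 4 bins of the centromeric segment (c1 to c4, red), the Poll and Dpcd start bin (P, grey) and the 2 bins of the telomeric segment (t1 and t2, blue), placed by reference position (x axis). Points are single bins of 1 merged map and bars 95% counting intervals. The slope runs upwards in homozygous Inv1 and homozygous Inv2 and is nearly flat in heterozygous Inv1. It runs downwards in both Dup maps and the wild-type. Wild-type contacts set in the inverted orders are not drawn. In the Inv2 order they run upwards too, from −0.70 at c1 to 0.87 at t2. In the Inv1 order they run downwards, from 1.43 at c1 to −0.19 at t2.

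Inv2 gave directions of the same sign as Inv1 in its inverted order, but within this range they describe the turned frame. The centromeric segment had 0.903 on its centromeric and 0.921 on its telomeric side in homozygous Inv2, a direction of −0.03 (−0.05 to −0.00), against 0.28 in the wild-type, and its sign turned to 0.0950 when the Poll and Dpcd start bin was added. The telomeric segment had 1.29 on its centromeric and 0.732 on its telomeric side in homozygous Inv2, a direction of 0.82 (0.78 to 0.85), against −0.81 in the wild-type. All 104 bin pairs on either side of the centromeric segment had their partner within the inverted interval, as had 52 of 52 and 51 of 52 for the telomeric segment, so the same sequences lay at the same distances as in the wild-type. Wild-type contacts set in the Inv2 order had −0.28 (−0.31 to −0.24) for the centromeric segment and 0.79 (0.74 to 0.83) for the telomeric segment. Read in the reference order, the telomeric segment had −0.79 (−0.82 to −0.76) in homozygous Inv2 and −0.81 in the wild-type, a difference of 0.03 (−0.03 to 0.08). For the centromeric segment, 0.03 (0.00 to 0.05) in homozygous Inv2 stood against 0.28 in the wild-type, a difference of −0.25 (−0.29 to −0.21).

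In the reference order, the lower asymmetry in the centromeric segment of homozygous Inv2 lay mainly on the side facing Fbxw4, but this depended on the order. At the reference positions, the mean on the side facing Btrc was 0.956 in homozygous Inv2 and 0.978 in the wild-type. On the side facing Fbxw4 it was 0.938 in homozygous Inv2 and 0.806 in the wild-type. With both maps in the Inv2 order, the side facing Btrc had 0.921 in homozygous Inv2 and 1.02 in the wild-type. The side facing Fbxw4 then had 0.903 in homozygous Inv2 and 0.844 in the wild-type. Bin by bin in the inverted order, the directions of homozygous Inv2 were −0.39, −0.08, 0.12 and 0.26 over the centromeric segment, 0.57 at the Poll and Dpcd start bin, and 0.73 and 0.90 over the telomeric segment. In this order, 1 of the 6 boundary bins changed by at least 1.5-fold towards the telomeric side against the wild-type (percent of all bins called, 9.73) and 2 towards the centromeric side (9.42). In the reference order no boundary bin of homozygous Inv2 passed this fold in either direction, where 6.69% of all bins changed towards the telomeric and 7.90% towards the centromeric side.

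Beyond the inverted interval, the contacts of the segments with the outer boundaries did differ in Inv2. At the telomeric outer boundary the centromeric segment had 2.89 (2.82 to 2.96) in homozygous Inv2 and 2.00 in the wild-type, 1.45-fold higher in homozygous Inv2 (1.39 to 1.51). For the telomeric segment the value was 1.99 (1.92 to 2.07) in homozygous Inv2 and 2.76 in the wild-type, a ratio of 0.721 (0.685 to 0.758). Homozygous Inv1 had 1.68 (1.65 to 1.72) for the centromeric segment, a ratio of 0.844 (0.814 to 0.874) to the 2.00 of the wild-type, and 0.987 (0.954 to 1.02) for the telomeric segment, a ratio of 0.358 (0.341 to 0.375) to the 2.76 of the wild-type. The values rest on the new distances too. In homozygous Inv2 the centromeric segment lay 322.5 kb from this boundary, against 197.5 kb in the wild-type, and had a scaled signal of 24.3, against 25.1 in the wild-type, whereas the telomeric segment had 15.3 in homozygous Inv2 and 39.3 in the wild-type. The contact of the centromeric segment of homozygous Inv1 with this boundary was lower only relative to its new distance of 102.5 kb, since its scaled signal was 40.3 in homozygous Inv1 and 25.1 in the wild-type.

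The ratio of the segments at the telomeric outer boundary was turned in both inversions. Centromeric over telomeric segment it was 1.71 (1.64 to 1.77) in homozygous Inv1, 1.45 (1.39 to 1.52) in homozygous Inv2, 0.983 (0.947 to 1.02) in heterozygous Inv1, 0.676 (0.652 to 0.7001) in homozygous Dup, 0.851 (0.763 to 0.949) in heterozygous Dup and 0.722 (0.691 to 0.755) in the wild-type. The turn was also present at the reference positions, with 2.19 (2.11 to 2.28) in homozygous Inv1 and 1.80 (1.72 to 1.88) in homozygous Inv2. Wild-type contacts set in the inverted orders had a ratio below 1, with 0.589 in the Inv1 order and 0.598 in the Inv2 order.

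At the centromeric outer boundary the ratio of the segments was lower in both homozygous inversions than in the wild-type. Homozygous Inv1 had 3.18 (3.10 to 3.28) for the centromeric and 2.96 (2.85 to 3.07) for the telomeric segment, a ratio of 1.08 (1.03 to 1.13), against 1.37 (1.30 to 1.45) in the wild-type. In homozygous Inv2 the segments had 2.37 (2.31 to 2.43) and 2.38 (2.31 to 2.45), a ratio of 0.994 (0.958 to 1.03). Against the wild-type the centromeric segment was lower in both inversions, with ratios of 0.689 (0.662 to 0.717) in homozygous Inv1 and 0.513 (0.494 to 0.532) in homozygous Inv2. The telomeric segment was lower too, with 0.879 (0.829 to 0.932) in homozygous Inv1 and 0.707 (0.670 to 0.747) in homozygous Inv2. By scaled signal the centromeric segment had 21.9 in homozygous Inv1 and 28.97 in homozygous Inv2, against 36.9 in the wild-type. For the telomeric segment the scaled signal was 21.6 in homozygous Inv1 and 32.8 in homozygous Inv2, against 23.99 in the wild-type, so in homozygous Inv2 it was higher by signal and lower relative to its new distance of 182.5 kb. In the reference order the ratio of the segments at this boundary was 0.940 (0.898 to 0.984) in homozygous Inv1 and 0.826 (0.796 to 0.858) in homozygous Inv2, both below 1, against 1.37 in the wild-type, so the order of the segments was turned at reference positions in both inversions but not in the inverted order of homozygous Inv1, and could not be told from 1 in that of homozygous Inv2.

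**Figure D3:**
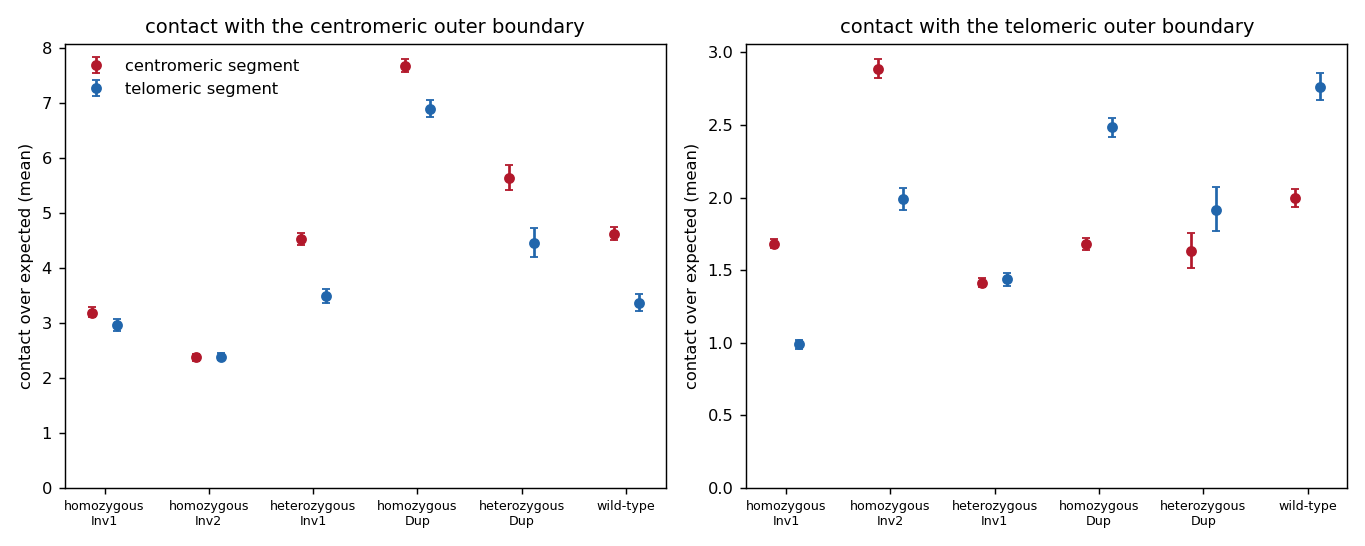
Mean contact over expected (y axis) of the centromeric segment (red) and the telomeric segment (blue) of the boundary with 25 kb around the centromeric outer boundary (left) and the telomeric outer boundary (right) in the 6 merged maps (x axis), inversions in their inverted order. Bars are 95% counting intervals of single merged maps. At the telomeric outer boundary the centromeric segment lies above the telomeric segment in both homozygous inversions and below it in both Dup maps and the wild-type.

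The bins with the highest contact of each segment were mostly these outer boundaries. On the centromeric side, chr19:45295001-45300000 was the highest bin for both segments in homozygous Inv1 (3.50 for the centromeric and 3.38 for the telomeric segment), homozygous Inv2 (2.91 and 2.97) and heterozygous Inv1 (5.29 and 4.25), as in the wild-type (5.73 and 4.15). On the telomeric side, chr19:45820001-45825000 was the highest bin for the centromeric segment of homozygous Inv2, with 3.49 over 2282 read pairs, and for both segments of the wild-type, with 2.34 for the centromeric and 3.59 for the telomeric segment. This bin overlaps Npm3, a histone chaperone of the nucleophosmin family, the transcript Gm15491 and the end of Mgea5, which encodes the enzyme that removes O-GlcNAc from proteins. In homozygous Inv1 the highest telomeric bins lay beyond it, at chr19:46090001-46095000 for the centromeric segment (2.06) and chr19:46100001-46105000 for the telomeric segment (1.14). For the telomeric segment of homozygous Inv2 it was chr19:45330001-45335000, with 2.35, the bin of the centromeric target site, which the inversion moved to the telomeric junction.

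Single bin pairs that changed by at least 1.5-fold were counted against the wild-type, which kept its reference distances. In the inverted order a pair whose distance changed was divided by a different expected contact. Such a pair could pass the fold without a change of signal. Of the 2277 members, 1894 had at least 10 read pairs in both maps and lay at 25 kb or more in both orders for homozygous Inv1. In the inverted order 219 of them (11.6%) were higher in homozygous Inv1 (5.87% of all bin pairs tested) and 180 (9.50%) lower (8.53% of all). The telomeric segment carried the largest shares: 92 of its 378 pairs (24.3%) with partners on the reference centromeric side were higher in homozygous Inv1, and 68 of its 264 pairs (25.8%) with partners on the telomeric side were lower. In the opposite directions the telomeric segment had 23 of 378 lower (6.08%) and 3 of 264 higher (1.14%), below the shares over the whole map.

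In the reference order, which keeps the wild-type distances, the centromeric segment carried the change of homozygous Inv1. Of its 539 pairs with telomeric partners, 276 (51.2%) were higher in homozygous Inv1 (6.26% of all bin pairs tested) and 3 lower. Of its 722 pairs with centromeric partners, 276 (38.2%) were lower in homozygous Inv1 (9.21% of all) and 9 higher. Which segment carried the change of homozygous Inv1 thus depended on the order in which distances were taken.

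For homozygous Inv2, 317 of 1899 members (16.7%) were higher in the inverted order (11.3% of all bin pairs tested) and 427 (22.5%) lower (14.2% of all). The centromeric segment had 261 of 538 pairs with reference telomeric partners higher (48.5%) and 294 of 724 pairs with centromeric partners lower (40.6%), with 0 of those 724 higher. For the telomeric segment it was 54 of 263 pairs with telomeric partners higher (20.5%) and 125 of 377 with centromeric partners lower (33.2%). Partners beyond the inverted interval lay at new distances, so these counts mix the reordering with changes of contact, and they were not separated. In the reference order the shares of homozygous Inv2 over all members fell below the background. Of 1899 members 72 (3.79%) were higher, against 6.57% of all bin pairs, and 257 (13.5%) lower, against 14.9% of all. By segment, the lower pairs were uneven. The centromeric segment had 141 of 724 pairs with centromeric partners lower (19.5%) and 26 of 538 with telomeric partners (4.83%). The telomeric segment had 64 of 263 pairs with telomeric partners lower (24.3%) and 26 of 377 with centromeric partners (6.90%).

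With the genes, the exchange of the segments was seen as follows, with each gene taken as its start bin and 1 bin on either side. The Fgf8 bins lie within the telomeric outer boundary as defined here and 1 of the Lbx1 bins within the centromeric one, so these values are not independent of those above. With Fgf8, the centromeric segment had a scaled signal of 45.3 in homozygous Inv1, 26.7 in homozygous Inv2, 40.8 in heterozygous Inv1, 25.6 in homozygous Dup, 23.2 in heterozygous Dup and 28.0 in the wild-type. With the telomeric segment Fgf8 had 22.3 in homozygous Inv1, 16.9 in homozygous Inv2, 38.5 in heterozygous Inv1, 42.0 in homozygous Dup, 30.6 in heterozygous Dup and 43.8 in the wild-type. By signal Fgf8 therefore met the centromeric segment more than the telomeric segment in all 3 inversion maps, and the telomeric segment more in both Dup maps and the wild-type. In contact over expected of the inverted order, the ratio of centromeric over telomeric segment with Fgf8 was 1.78 (1.70 to 1.86) in homozygous Inv1, 1.45 (1.37 to 1.52) in homozygous Inv2 and 0.961 (0.921 to 1.003) in heterozygous Inv1, whose interval includes 1, against 0.728 (0.690 to 0.767) in the wild-type.

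With Lbx1, the centromeric segment had a scaled signal of 17.02 in homozygous Inv1, 23.3 in homozygous Inv2, 23.7 in heterozygous Inv1, 47.3 in homozygous Dup, 34.0 in heterozygous Dup and 26.5 in the wild-type. With the telomeric segment Lbx1 had 18.5 in homozygous Inv1, 30.9 in homozygous Inv2, 19.7 in heterozygous Inv1, 35.3 in homozygous Dup, 25.4 in heterozygous Dup and 16.5 in the wild-type. Lbx1 thus met the telomeric segment more in the homozygous inversions and the centromeric segment more in heterozygous Inv1, both Dup maps and the wild-type, but in contact over expected of the inverted order the ratio of the segments in homozygous Inv1 had an interval that includes 1, 0.965 (0.905 to 1.03). In contact over expected, the centromeric segment had 2.37 (2.27 to 2.47) with Lbx1 in homozygous Inv1, 1.75 (1.69 to 1.81) in homozygous Inv2 and 3.15 (3.01 to 3.28) in the wild-type. The telomeric segment had 2.45 (2.33 to 2.58) with Lbx1 in homozygous Inv1, 2.06 (1.98 to 2.13) in homozygous Inv2 and 2.13 (1.98 to 2.29) in the wild-type.

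With Btrc, which Inv2 turns with the boundary and Inv1 does not, contact over expected of the centromeric segment was 1.28 (1.22 to 1.35) in homozygous Inv1, 1.12 (1.07 to 1.18) in homozygous Inv2 and 1.13 (1.06 to 1.21) in the wild-type. For the telomeric segment it was 1.46 (1.37 to 1.56) in homozygous Inv1, 0.994 (0.927 to 1.07) in homozygous Inv2 and 0.940 (0.853 to 1.04) in the wild-type. Over the wild-type, homozygous Inv1 had ratios of 1.13 (1.04 to 1.23) for the centromeric and 1.56 (1.39 to 1.75) for the telomeric segment, and homozygous Inv2 had 0.990 (0.915 to 1.07) and 1.06 (0.939 to 1.19), whose intervals include 1. By scaled signal the centromeric segment had 12.4 with Btrc in homozygous Inv1, at 282.5 kb, against 15.2 in the wild-type, at 187.5 kb, so it was lower by signal and higher only relative to its distance. With Btrc the telomeric segment had 15.1 in homozygous Inv1 and 11.2 in the wild-type. The start of Fbxw4 lies at the telomeric end of Inv1, so its bins span the junction and its value joins sequence from both sides of it. In homozygous Inv2 the centromeric segment had 1.07 (1.04 to 1.11) with Fbxw4, against 0.915 (0.867 to 0.965) in the wild-type, and the telomeric segment had 1.47 (1.42 to 1.53), against 1.39 (1.32 to 1.47) in the wild-type.

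**Figure D4:**
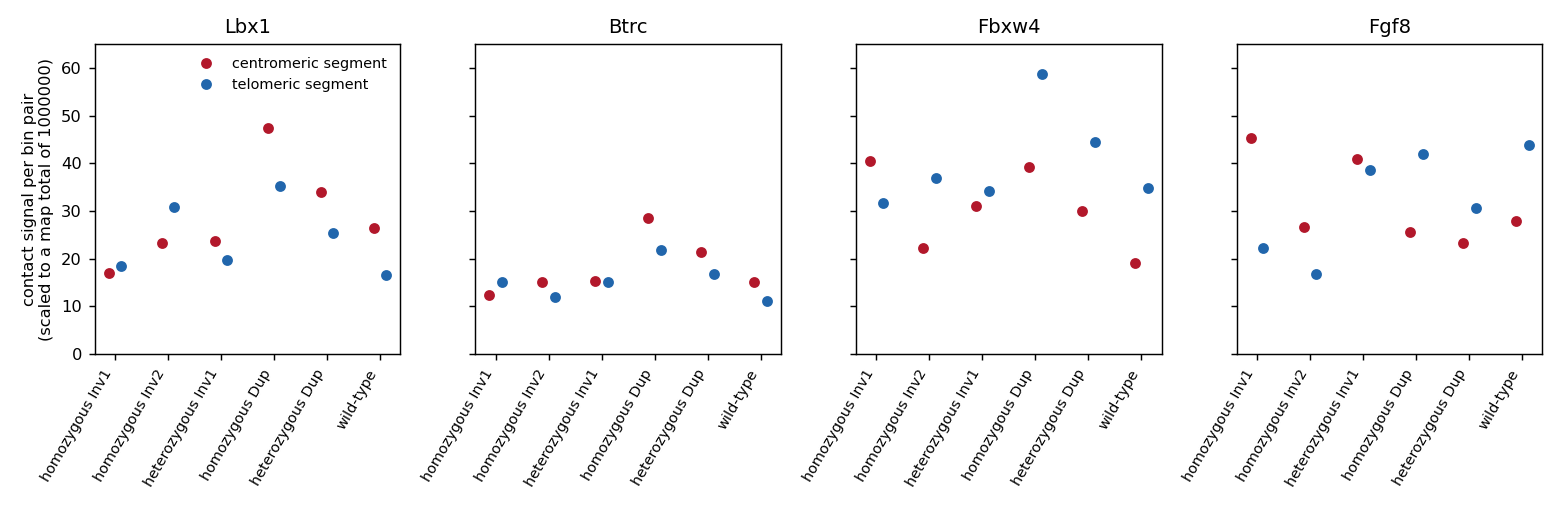
Contact signal per bin pair, scaled to a map total of 1000000 (y axis), of the centromeric segment (red) and the telomeric segment (blue) with the start bins of Lbx1, Btrc, Fbxw4 and Fgf8 in the 6 merged maps (x axis), at reference positions and not corrected for distance. With Fgf8 the centromeric segment is the higher one in the 3 inversion maps and the lower one in both Dup maps and the wild-type.

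Heterozygous Inv1 maps mix the contacts of a wild-type and an inverted allele, and most of their values lay between those of homozygous Inv1 and the wild-type. In the inverted order the centromeric segment had a direction of 0.09 (0.06 to 0.11) and the telomeric segment 0.21 (0.17 to 0.24) in heterozygous Inv1. At reference positions they were −0.30 (−0.32 to −0.27) and −0.35 (−0.38 to −0.31) in heterozygous Inv1, where the wild-type had 0.28 and −0.81. The single bins of heterozygous Inv1 spanned −0.01 to 0.21 in the inverted order, so the slope along the boundary was nearly flat. The sign of the centromeric segment in the inverted order was not stable, with −0.37 at 25 to 100 kb in heterozygous Inv1. Set by scaled signal at the outer boundaries and the 4 genes, heterozygous Inv1 lay between homozygous Inv1 and wild-type in 9 of 12 values and above both in the other 3. It was above their midpoint in all 12, by 1.03-fold to 1.17-fold. The map total used for scaling is a sum of normalised signal that counts contacts within a bin too, and their share of that total is not given here. By recovered read pairs the share differed between maps. Read pairs between bins were 6946907 of 7804215 in heterozygous Inv1, 10121287 of 11615891 in homozygous Inv1 and 6288135 of 7867931 in the wild-type. How much contacts within a bin add to the excess over the midpoint was not tested, and other comparisons of scaled signal between maps share this limit. Of the 6 boundary bins of heterozygous Inv1, 1 changed by at least 1.5-fold towards the telomeric side in the inverted order (3.65% of all bins) and 2 towards the centromeric side (3.65% of all bins), and 2 and 1 in the reference order (3.34% and 5.47% of all bins). Of its 1844 members tested in the inverted order, 216 (11.7%) were higher (6.22% of all bin pairs tested) and 212 lower (7.06% of all), and of 1850 in the reference order 172 (9.30%) were higher (6.17% of all) and 189 (10.2%) lower (6.76% of all). The centromeric segment carried the shift of the reference order, with 143 of its 539 pairs with telomeric partners (26.5%) higher and 117 of its 683 pairs with centromeric partners (17.1%) lower in heterozygous Inv1. For the centromeric segment at the telomeric outer boundary, the scaled signal was 36.3 in heterozygous Inv1 and 40.3 in homozygous Inv1, against 25.1 in the wild-type.

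At 25 to 150 kb the directions of the segments in Dup had the signs of the wild-type. The centromeric segment had 1.68 on its centromeric and 1.49 on its telomeric side in homozygous Dup, a direction of 0.17 (0.15 to 0.19), against 0.28 in the wild-type. The telomeric segment had 1.34 on its centromeric and 2.04 on its telomeric side in homozygous Dup, a direction of −0.61 (−0.63 to −0.58), against −0.81 in the wild-type. With the range widened to 300 kb this did not hold for the telomeric segment of homozygous Dup, which had 0.07, against −0.54 in the wild-type. The centromeric segment kept its sign, with 0.85 in homozygous Dup and 0.48 in the wild-type. Heterozygous Dup kept both signs in this range, with 0.66 for the centromeric and −0.12 for the telomeric segment. At 25 to 150 kb heterozygous Dup had 0.17 (0.12 to 0.22) and −0.61 (−0.67 to −0.54), the same values to 2 decimals as homozygous Dup, from 1 library. None of the 6 boundary bins changed its direction by 1.5-fold in either Dup map, where 3.66% of all bins in homozygous Dup and 0.915% in heterozygous Dup changed towards the telomeric side and 3.35% and 2.13% towards the centromeric side.

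The height of the stripes did differ in Dup. Members had a median contact over expected of 1.08 in homozygous Dup and 1.08 in heterozygous Dup, against 0.855 in the wild-type. Over all bin pairs of each map the median was 0.847 in homozygous Dup, 0.8755 in heterozygous Dup and 0.890 in the wild-type. At the centromeric outer boundary, which Dup duplicates too, the centromeric segment had 7.68 (7.56 to 7.79) in homozygous Dup and 5.64 (5.41 to 5.87) in heterozygous Dup, against 4.62 in the wild-type. Its telomeric counterpart had 6.89 (6.74 to 7.05) in homozygous Dup and 4.45 (4.19 to 4.72) in heterozygous Dup, against 3.37 in the wild-type. At the telomeric outer boundary, which is not duplicated, the centromeric segment had 1.68 (1.64 to 1.72) in homozygous Dup and 1.63 (1.51 to 1.76) in heterozygous Dup, against 2.00 in the wild-type. Over the whole stripes, of 1897 members tested, 719 (37.9%) were higher in homozygous Dup (14.8% of all bin pairs tested) and 52 (2.74%) lower (20% of all). In heterozygous Dup 410 of 1434 (28.6%) were higher (16.5% of all) and 41 (2.86%) lower (9.48% of all). The count for homozygous Dup depended on the scaling, with 1378 higher where the expected contact left out the duplicated interval and 112 where the map was balanced to equal bin totals. The Dup maps keep the copy number in their signal, so the height of a stripe and the number of copies of the boundary cannot be told apart in them.

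By distance, the stripes of the inversions and the wild-type differed in where they were high. On its centromeric side the centromeric segment of homozygous Inv1 had 0.722, 1.099, 1.19 and 1.58 at 25 to 95, 100 to 195, 200 to 295 and 300 to 395 kb, and 1.82 at 400 to 595 kb, the range to which the centromeric outer boundary was moved. In the wild-type it had 0.892, 1.07, 1.89 and 3.22 in the first 4 ranges and 1.08 in the last. On its telomeric side, which opens to Fgf8 in the inverted order, the centromeric segment had 1.01 at 25 to 95 kb in homozygous Inv1 and 0.7002 in the wild-type. The telomeric segment of homozygous Inv1 had 1.03 and 1.49 on its centromeric side at 25 to 95 and 100 to 195 kb, against 0.644 and 0.765 in the wild-type. On its telomeric side it had 0.667 and 0.812 in homozygous Inv1, against 1.11 and 1.88 in the wild-type. Homozygous Inv2 had 1.17 and 1.81 on the centromeric side of the telomeric segment and 0.686 and 0.797 on its telomeric side. Wild-type contacts set in the Inv2 order had 1.156 and 1.497 on its centromeric side and 0.668 and 0.814 on its telomeric side. Only the 1.81 of homozygous Inv2 thus lay well apart from the turned wild-type. The telomeric segment lay 147.5 kb from the centromeric junction in Inv2, so that range also held partners from beyond the inverted interval.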

How the data were processed

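Capture Hi-C libraries (DpnII, SureSelect capture) of E11.5 limb buds were made from wild-type and mutant embryos. Per the study's methods, the authors trimmed reads, aligned and filtered them in HiCUP, with Bowtie2 2.4.2 and build mm9, merged replicates, and built maps of 5 kb bins with Juicer tools 1.19.02. The deposited values are contact signal after KR normalisation, or LOIC for the Dup maps, which keeps copy number. All reads were mapped in the reference order. The 6 merged maps were used, and 3 subtraction maps were not. Read pairs were recovered as the whole numbers that the signal and 1 factor per bin give (100% of values within 0.01 in every map), and set the 95% counting intervals. Signal was divided by its mean at equal distance in the order used. Bin pairs were counted as changed at 1.5-fold with at least 10 read pairs in both maps. Outer boundaries were the highest wild-type bin of each side beyond 100 kb, with 2 bins either side. Named genes were those the study discusses at the locus and those that overlap the highest stripe bins. The members, lists and ranges were chosen with earlier results of these data known. Calculations used Python 3.11.15 and NumPy 2.4.6 and were tested on simulated data. Distance range, averaging, normalisation, boundary and block edges, fold and read minimum were varied. A sequence of the boundary is not reported here.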

Additional observations from a re-analysis of the deposited data

How the results depend on the processing

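Of 98 alternatives, 32 stayed within the counting interval or within 1.5 times the count, 60 moved beyond it and 6 reversed a direction, while 58 of 64 alternatives for a direction kept its sign. Directions are log2 values at 25 to 150 kb in the inverted order for the inversions, and the cause of a change was not tested. With a range of 25 to 100 kb, the centromeric segment had −0.54 in homozygous Inv1, −0.14 in homozygous Inv2, 0.25 in homozygous Dup and 0.34 in the wild-type, and in heterozygous Inv1 it reversed to −0.37. The telomeric segment had 0.43 in heterozygous Inv1, −0.66 in homozygous Dup and −0.70 in heterozygous Dup. With 25 to 300 kb, the centromeric segment reversed to 0.10 in homozygous Inv1 and had −0.0761 in homozygous Inv2, 0.65 in heterozygous Inv1, 0.85 in homozygous Dup, 0.66 in heterozygous Dup and 0.48 in the wild-type. The telomeric segment had 0.89 in homozygous Inv1, 0.60 in homozygous Inv2, 0.58 in heterozygous Inv1, −0.12 in heterozygous Dup and −0.54 in the wild-type, and in homozygous Dup it reversed to 0.0682. With the median over bin pairs, the centromeric segment reversed to −0.23 in heterozygous Inv1 and had 0.21 in homozygous Dup, and the telomeric segment had 0.67 in homozygous Inv1, 0.28 in heterozygous Inv1, −0.70 in homozygous Dup and −0.93 in the wild-type. With read pairs not normalised, the centromeric segment had −0.48 in homozygous Inv1 and 0.14 in homozygous Dup and reversed to −0.0087 in heterozygous Inv1, and the telomeric segment had 0.49 in homozygous Inv1, 0.73 in homozygous Inv2, 0.0544 in heterozygous Inv1 and −0.57 in homozygous Dup. With the Poll and Dpcd start bin added, the centromeric segment reversed to 0.0950 in homozygous Inv2 and had −0.30 in homozygous Inv1, 0.0526 in homozygous Dup, 0.0557 in heterozygous Dup and 0.13 in the wild-type. With the inverted block 1 bin shorter at each end, it had −0.22 in homozygous Inv1 and 0.28 in heterozygous Inv1. With the homozygous Dup map balanced to equal bin totals, the centromeric segment had 0.20. For counts of members changed, a fold of 2 left 54 higher and 50 lower in homozygous Inv1, 74 and 132 in homozygous Inv2, 31 and 51 in heterozygous Inv1, 138 and 10 in homozygous Dup, and 81 and 3 in heterozygous Dup. A minimum of 30 read pairs left 132 higher and 101 lower in homozygous Inv1, 153 and 200 in homozygous Inv2, 99 lower in heterozygous Inv1, 19 lower in homozygous Dup, and 216 higher and 12 lower in heterozygous Dup. With the expected contact taken without the duplicated interval, 1378 were higher and 0 lower in homozygous Dup, and 901 and 3 in heterozygous Dup. In balanced maps 112 were higher and 83 lower in homozygous Dup, and 187 higher in heterozygous Dup.

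No paired analysis was possible because the replicates were merged into 1 map per genotype before deposit, and for the same reason leaving out single replicates was not possible. A member bin pair of heterozygous Dup had a median of 16 read pairs, so single bin pairs were least precise there. Each value averages whole limb buds, and the copies of a duplicated boundary, or the 2 alleles of a heterozygote, cannot be told apart.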
